A study of Oryza sativa Japonica Group with 10 samples.

Results

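OsVIT2 (LOC4346978) is a vacuolar iron transporter of rice, and its transcript level is described here across the 5 groups of a low-phosphate time course. The gene was chosen by its symbol, and it was picked because earlier results of these data showed a very large early signal followed by a decline, so its own levels and differences are a description and carry no test. It is represented by 1 probe set, 1 of 57258 probe sets other than the Affymetrix controls, and it is 1 of 17905 genes that have a probe set assigned to a single gene. Whole-seedling RNA of the japonica cultivar Zhonghua 10 was hybridised to Affymetrix rice arrays. The seedlings were one week old, and they either grew with sufficient phosphate (the control) or were moved to phosphate-deficient solution for 6, 24, 48 or 72 h. Each group has 2 arrays that the labels call biological replicates, from independent plants, 10 arrays in all. The sources used here give neither the number of seedlings per sample nor the harvest time of the control. All 4 low-phosphate groups are compared with the same control arrays, with no phosphate-sufficient group at the later times, so low phosphate, seedling age and time of day cannot be told apart.

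Proteins of the vacuolar iron transporter family carry iron from the cytosol across the tonoplast into the vacuole, the largest store of metal ions in a plant cell. In rice, OsVIT1 and OsVIT2 sit in the tonoplast and can also move zinc and manganese, and the OsVIT2 transcript is known to rise when plants receive excess iron. Iron itself enters rice roots along a pair of routes. One releases chelators of the mugineic acid family, the phytosiderophores, and takes up the iron they bind. The other takes up ferrous iron directly.

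The values are MAS5 signals, the summarised brightness of a probe set on a linear scale, as the authors scaled them. Once 2% of the values were trimmed from each end, the mean signal was 500.1 on every array, while the median signal was 69.3 and 68.5 on the 72 h arrays and between 47.6 and 54.2 on the other 8. Log2 signals correlated at 0.910 to 0.938 between arrays of one group and at 0.881 to 0.921 between arrays of different groups. The log2 ratio of 3′ over 5′ signal of control transcripts, a measure of how complete the labelled RNA is, differed from the control by a median of 0.71 at 6 h, of −0.26 at 24 h, of 0.35 at 48 h and of 3.35 at 72 h for 3 rice transcripts. For 4 bacterial transcripts added to the samples, the same medians were 0.71, −0.27, 0.21 and 2.37. Both medians were higher at 6 and 48 h than at 24 h, as the OsVIT2 signals below also were, and highest at 72 h, where OsVIT2 was low. Their part in the results was not tested. The number of arrays, 2 in each group, limits the precision of every value.

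The OsVIT2 transcript was dim in the control, bright at 6 h, and far lower than at 6 h, yet still above the control, at the 3 later times. The control arrays gave signals of 51.7 and 19.2, and the lower of these lies under 23.9, the level below which a probe set's mean was not tested. After 6 h of low phosphate the signals were 14552.5 and 13647.8. No array outside 6 h exceeded 526.9. At 24 h the arrays read 160.2 and 253.4, at 48 h 473.4 and 526.9, and at 72 h 123.7 and 77.2. Thus the signal was lower at 24 h than at 6 h, higher again at 48 h, and lower at 72 h.

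**Figure D1:**
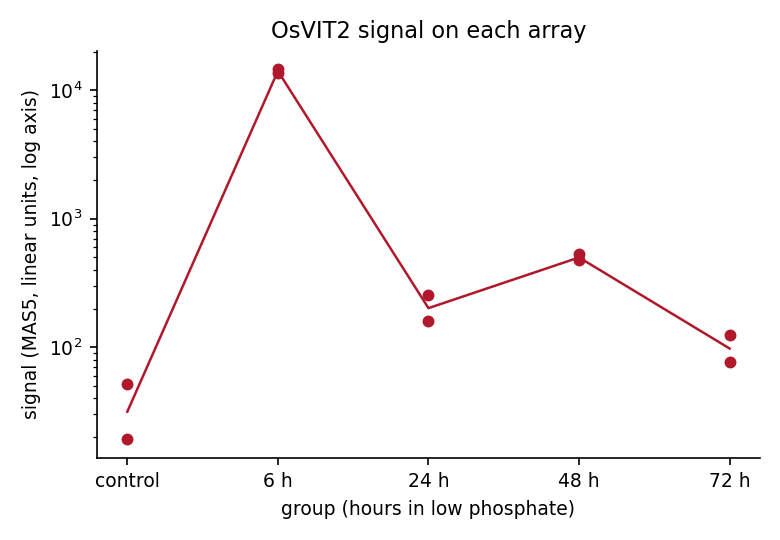
OsVIT2 signal (MAS5, linear units on a log axis) on each of the 10 arrays by group, with points for arrays and a line through the mean log2 signal of each group. The 6 h arrays stand at 13647.8 and 14552.5, and no group overlaps another.

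The group means of the OsVIT2 signal were 35.4 ± 23.0 (SD, n = 2) in the control, 14100.2 ± 639.7 (SD, n = 2) at 6 h, 206.8 ± 65.9 (SD, n = 2) at 24 h, 500.2 ± 37.8 (SD, n = 2) at 48 h and 100.4 ± 32.9 (SD, n = 2) at 72 h. From lowest to highest, the order was control, 72 h, 24 h, 48 h and 6 h. Neighbouring groups in this order did not overlap, although 3 of the 4 gaps are small. On the log2 scale the nearest arrays of neighbouring groups were 0.58 apart between control and 72 h, 0.37 between 72 h and 24 h, 0.90 between 24 h and 48 h, and 4.69 between 48 h and 6 h. The pooled SD between replicate arrays was 0.55 over the 5 groups, so the gap between 72 h and 24 h was smaller than that spread, and the gap between control and 72 h was about as large as it. The replicates were closest where the signal was high, with a fold of 1.07 between the 6 h arrays against 2.69 between the control arrays.

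Against the control, the mean log2 signal of OsVIT2 was higher by 8.81 at 6 h, a 447-fold difference. The 4 pairings of a 6 h array with a control array spanned 264-fold to 758-fold, a width set by the dim control arrays. At 24 h the difference was 2.68 on the log2 scale (pairs from 1.63 to 3.72), at 48 h 3.99 (3.19 to 4.78) and at 72 h 1.63 (0.58 to 2.69). All 4 differences of means exceed the 2-fold ratio that the submitters used to call a gene inducible, but at 72 h the smallest pairing gave 1.49-fold. Each control array weighs on these values: without control replicate 2 the differences at 6, 24, 48 and 72 h were 8.09, 1.96, 3.27 and 0.92, and without control replicate 1 they were 9.52, 3.39, 4.70 and 2.35. From 6 to 24 h the mean log2 signal dropped by 6.13, a 69.9-fold difference. It then stood 1.31 higher at 48 h than at 24 h and was lower by 2.35 on the log2 scale (5.11-fold) at 72 h than at 48 h. In whole seedlings, a lower signal from fewer cells that express the gene and one from less RNA per cell cannot be told apart.

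Among the 22436 probe sets assigned to a single gene, the OsVIT2 difference between 6 h and control ranked 2nd from the top, and its difference between 24 h and 6 h was the lowest of all. The later differences from control were less extreme, ranking 431st at 24 h, 33rd at 48 h and 1571st at 72 h. The step from 24 to 48 h was exceeded by 6.56% of the 34355 tested probe sets. Among all 57258 probe sets it ranked 3rd at 6 h. The probe set above OsVIT2 at 6 h among the 22436 belongs to LOC4336526, a gene that has no published symbol in the annotation used here. Its signals were 12.2 and 3.6 in the control, 5998.1 and 6216.7 at 6 h, 341.7 and 471.7 at 24 h, 3773.7 and 4041.0 at 48 h, and 177.5 and 240.0 at 72 h. Both of its control arrays lie under the level of 23.9, so its 6 h mean is given as at least 8.00 above that level on the log2 scale, and its order against OsVIT2 is not settled. It had the same directions at every step, but at 48 h it was far closer to its 6 h level than OsVIT2 was. The 5 probe sets next below OsVIT2 were those of LOC4330867, LOC4346499, LOC4349509, PRX74 and LOC4340843. Both control arrays lay under 23.9 for the last 4 of these, so their 6 h means are given as at least 3.16 (LOC4340843) to at least 4.38 (PRX74) above that level on the log2 scale, and their order is not settled. PRX74, which encodes a class III peroxidase, read 484.2 and 514.7 at 6 h.

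**Figure D2:**
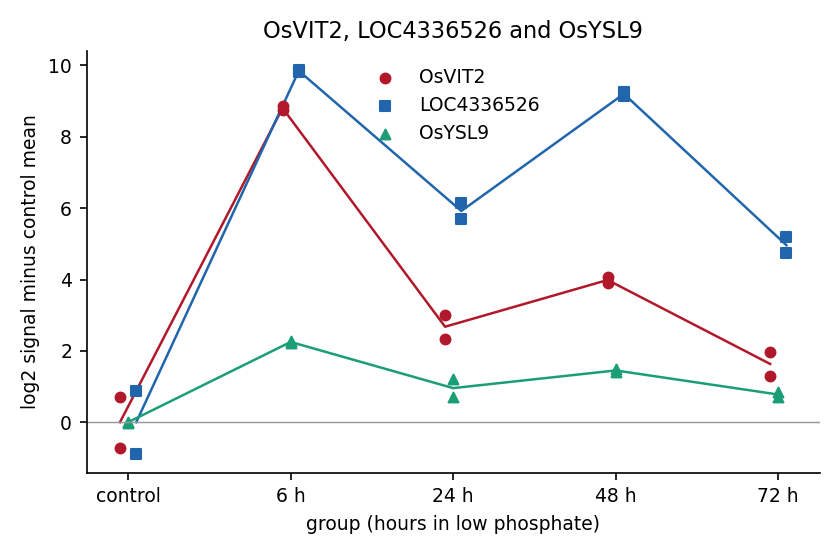
Log2 signal minus the gene's control mean for OsVIT2, LOC4336526 and OsYSL9 on each array (points), with lines through the group means. All 3 are highest at 6 h and lower at 24 h than at 48 h, and the control arrays of LOC4336526 are at 12.2 and 3.6, under the tested level.

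OsVIT1, the other member of the family that was matched by symbol or synonym, did not follow OsVIT2. Family members without such a name were not looked for. Its signals were 64.6 and 89.0 in the control, 50.1 and 80.2 at 6 h, 71.9 and 66.9 at 24 h, 108.8 and 87.9 at 48 h, and 58.5 and 109.6 at 72 h. The 6 h arrays overlap the control arrays. In the fit across all tested probe sets, the 6 h difference was −0.26 ± 0.43 (SE) on the log2 scale (adjusted p = 0.702), and those at 24, 48 and 72 h were −0.13, 0.37 and 0.08 (adjusted p = 0.853, 0.586 and 0.904). The probe set is dim and its error is wide.

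Beside OsVIT2, the lists of the vacuolar iron transporter family, phytosiderophore synthesis and iron uptake, long-distance iron transport and iron regulators held 15 tested genes, and a list of iron storage proteins matched 0 genes by symbol. At 6 h, 7 of the 15 iron genes rose and 4 fell against the control, with a median log2 difference of 0.04, where 19.0% of all tested probe sets rose and 17.2% fell, with a median of 0.04. At 24 h, 8 rose and 2 fell with a median of 0.43, against 20.6% and 19.2% of all probe sets and a median of 0.04. At 48 h, 8 rose and 5 fell with a median of 0.37, against 19.4% and 12.5% and a median of 0.11. At 72 h, 6 rose and 4 fell with a median of 0.08, against 21.9% and 17.6% and a median of 0.16. The number that rose was above the share over all probe sets at each time, and the number that fell was above it at 6, 48 and 72 h and below it at 24 h. That share includes dim probe sets. Of the 22903 probe sets above the 60th percentile of mean signal, 5816 fell at 6 h, 4327 at 48 h and 5810 at 72 h. The 4 of 15 at 6 and 72 h is close to that share. The lists were chosen with earlier results of these data known, so an excess in them is not a test. No direction was common to the iron genes at any of the 4 times. These comparisons share the control arrays.

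The matched genes of phytosiderophore synthesis rose at all 4 times with the authors' scaling. OsNAS1, OsNAS2 and OsNAS3 encode nicotianamine synthases, which make the chelator nicotianamine, and OsNAAT1 encodes the aminotransferase that takes it towards the phytosiderophores. OsNAS2 signals were 5070.7 and 5233.0 in the control, 24668.2 and 25742.1 at 6 h, 23781.0 and 22332.7 at 24 h, 15726.1 and 15213.1 at 48 h, and 11078.9 and 11340.3 at 72 h, so all low-phosphate arrays lay above both control arrays. The log2 differences of OsNAS2 were 2.29, 2.16, 1.59 and 1.12 ± 0.05 (SE) at 6, 24, 48 and 72 h. OsNAAT1 gave 2.05, 1.70, 1.69 and 1.15 ± 0.04 (SE). OsNAS1 gave smaller differences of 0.93, 1.0, 0.64 and 0.42 ± 0.04 (SE), and the last of these was −0.08 when each array was centred on its median. OsNAS1 and OsNAS2 are related copies that lie next to each other in the RefSeq gene order, and their probe sets could share signal, so their separate values are uncertain.

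OsNAS3 followed the up and down order of OsVIT2. Its signals were 1782.9 and 1870.1 in the control, 8326.2 and 8102.0 at 6 h, 4506.2 and 4237.5 at 24 h, 7331.8 and 7023.0 at 48 h, and 4038.8 and 3941.9 at 72 h. It was high at 6 and 48 h, intermediate at 24 and 72 h, and no low-phosphate array overlapped the control. The differences from control were 2.17, 1.26, 1.97 and 1.13 ± 0.05 (SE), with adjusted p = 9.55e-11, 3.28e-09, 5.04e-10 and 2.31e-08. In OsNAS3 the 48 h level was close to the 6 h level, whereas the 48 h level of OsVIT2 was lower than its 6 h level by 4.82 on the log2 scale.

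OsYSL15, the root transporter that takes up iron bound to phytosiderophores, had the same step directions with smaller differences, but it was higher at 72 h than at 24 h. Its signals were 6137.7 and 6124.5 in the control, 11888.3 and 12045.9 at 6 h, 5962.4 and 6281.2 at 24 h, 10289.8 and 9658.8 at 48 h, and 7258.4 and 7002.0 at 72 h. The 6 h and 48 h arrays were the high ones, and the 24 h arrays straddled the control. It rose by 0.96 ± 0.05 (SE) at 6 h (adjusted p = 2.79e-08) and by 0.70 at 48 h (adjusted p = 6.3e-07), with an adjusted p of 0.974 at 24 h. The rise of 0.22 at 72 h (adjusted p = 0.00377) depended on the scaling, since it was −0.28 (adjusted p = 0.00195) when arrays were centred on their medians.

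In the iron lists, the direct uptake genes OsIRT1, OsIRT2 and OsNRAMP1 each fell at 3 of the 4 times, though some calls depended on the setting. Uptake genes for zinc and manganese, described at the end, were called higher more often than lower. OsIRT1 and OsIRT2 encode root transporters of ferrous iron, and OsNRAMP1 encodes a metal transporter of the plasma membrane. OsIRT2 signals were 577.7 and 772.0 in the control, 183.3 and 139.1 at 6 h, 854.9 and 951.1 at 24 h, 206.7 and 192.5 at 48 h, and 71.7 and 33.6 at 72 h. It was thus low where OsVIT2 was high at 6 and 48 h, but it was lowest at 72 h, when OsVIT2 was also low. OsIRT2 fell at 6, 48 and 72 h, with log2 differences of −2.06, −1.74 and −3.77 ± 0.30 (SE; adjusted p = 0.000178, 0.000855 and 1.47e-06). The 24 h difference was 0.43 (adjusted p = 0.299). OsIRT1 fell at 6, 24 and 48 h, with differences of −0.28, −0.34 and −0.23 ± 0.06 (SE; adjusted p = 0.00408, 0.000857 and 0.0166). Its call at 6 h was lost after quantile normalization (−0.10, adjusted p = 0.202), and at 48 h the direction turned (0.14, adjusted p = 0.0924). OsIRT1 and OsIRT2 are related copies with 1 gene between them, and their probe sets could share signal. OsNRAMP1 read 5287.2 and 5127.8 in the control, 4224.1 and 4443.0 at 6 h, 5917.1 and 6596.8 at 24 h, 3274.2 and 3300.1 at 48 h, and 1838.3 and 1568.8 at 72 h. The OsNRAMP1 falls at 48 and 72 h had differences of −0.66 and −1.62 ± 0.08 (SE; adjusted p = 4.15e-05 and 2.19e-08), and its smaller calls at 6 and 24 h were lost under several settings.

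**Figure D3:**
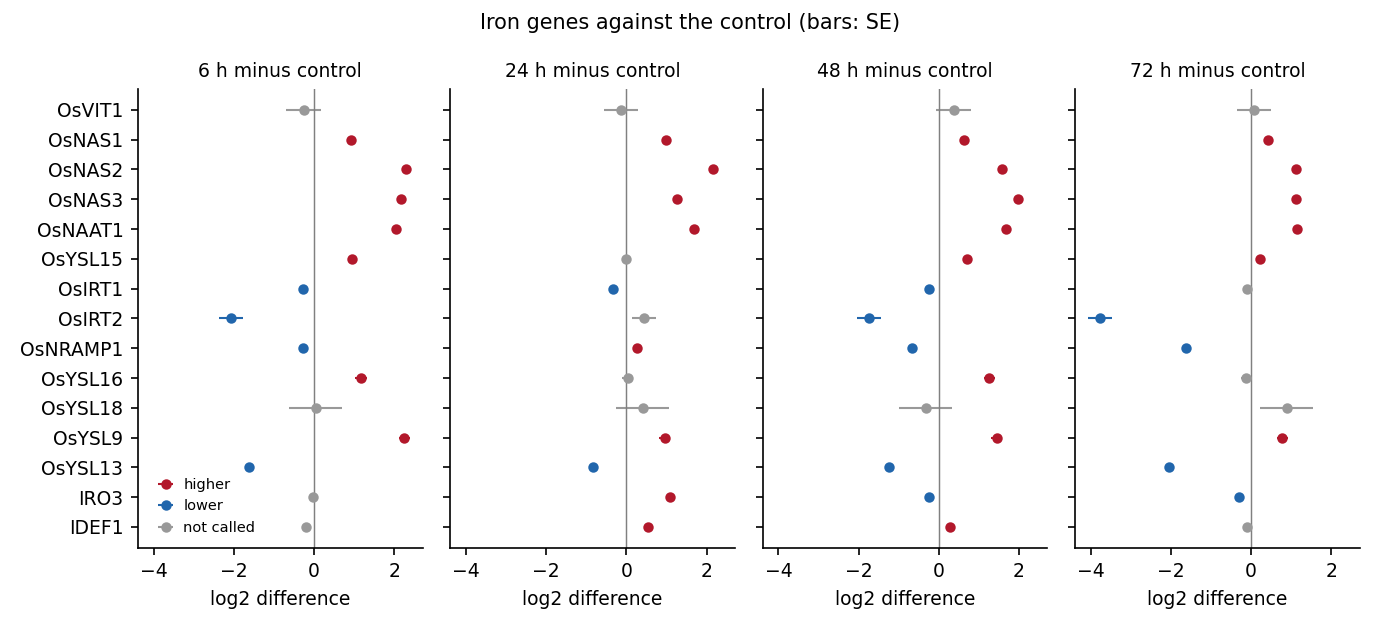
Log2 difference from the control (horizontal axis) of the 15 tested iron genes other than OsVIT2 at the 4 times, with bars for the SE and colours for calls at adjusted p under 0.05. OsNAS2, OsNAS3 and OsNAAT1 lie right of 0 at every time, and OsYSL13 lies left of 0 at every time.

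Of the YSL transporters, which move metals bound to nicotianamine or phytosiderophores within the plant, OsYSL9 and OsYSL16 ran with OsVIT2. OsYSL9 read 463.1 and 457.3 in the control, 2234.0 and 2144.6 at 6 h, 1067.4 and 747.0 at 24 h, 1221.3 and 1297.1 at 48 h, and 820.5 and 756.9 at 72 h. The 6 h arrays stood alone at the top, and the 24 h and 72 h arrays overlapped. It rose by 2.25, 0.96, 1.45 and 0.78 ± 0.14 (SE) at the 4 times in turn (adjusted p = 1.16e-07, 0.000111, 7.16e-06 and 0.000689), the last not called with median centring (0.28, adjusted p = 0.181).

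OsYSL16, a transporter linked in rice to iron and copper movement in the vascular tissue, read 689.5 and 522.1 in the control, 1421.4 and 1283.8 at 6 h, 619.1 and 609.9 at 24 h, 1362.3 and 1507.2 at 48 h, and 608.6 and 499.2 at 72 h. Its 6 h and 48 h arrays lay above all others, and its 24 h arrays fell within the control range. It rose by 1.17 ± 0.14 (SE) at 6 h (adjusted p = 3.01e-05) and by 1.26 at 48 h (adjusted p = 2.6e-05). The 72 h difference was −0.12 (adjusted p = 0.516), which median centring turned into a call of −0.62 (adjusted p = 0.00502). OsYSL9 and OsYSL16 are also direct neighbours in the RefSeq gene order and related copies, so signal could be shared. OsYSL13 fell at all 4 times, with differences of −1.63, −0.84, −1.25 and −2.05 ± 0.06 (SE). OsYSL18 was dim, with differences of 0.04, 0.41, −0.32 and 0.89 ± 0.66 (SE), none of which passed the test.

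The regulators had their highest level at 24 h, when OsVIT2 was lower than at 6 and 48 h. The gene called IRO3 here encodes a bHLH factor known in rice as a negative regulator of the response to iron deficiency, and its RefSeq entry also lists OsIRO2 among the synonyms. Its signals were 3113.1 and 3229.6 in the control, 3073.1 and 3195.6 at 6 h, 6063.2 and 7427.4 at 24 h, 2662.2 and 2699.3 at 48 h, and 2650.2 and 2530.4 at 72 h. Only the 24 h arrays stood out upwards. IRO3 rose by 1.08 ± 0.08 (SE) at 24 h (adjusted p = 4.62e-07), and its 6 h difference was −0.02 (adjusted p = 0.904). IDEF1, a transcription factor that binds iron-deficiency-responsive elements in rice, rose by 0.53 ± 0.09 (SE) at 24 h (adjusted p = 0.000353), while its 6 h difference of −0.20 did not pass the test (adjusted p = 0.0982).

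The steps between low-phosphate groups do not use the control arrays. From 6 to 24 h, 5 of the 15 iron genes rose and 6 fell, against 19.5% and 19.8% of all tested probe sets. From 24 to 48 h, 4 rose and 7 fell, against 20.5% and 15.3%. From 48 to 72 h, 0 rose and 11 fell in the limma fit (0 and 11 also at an unadjusted p under 0.05), against 14.4% and 16.9%, and the median log2 difference of the 15 was −0.48 where that of all probe sets was 0.06. Median centring shifts the iron genes along with all others, so the −0.48 above cannot be set against medians from that scaling. With it, the median of all probe sets for this last step was −0.455. OsNAS1 then went from −0.22 to −0.73, and 13 of the 15 iron genes were called.

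Of the 15 iron genes, 4 passed the test at all 3 steps in the directions of OsVIT2, lower from 6 to 24 h, higher from 24 to 48 h and lower from 48 to 72 h. The same holds for 3.37% of all tested probe sets, a share that includes dim ones. The 4 were OsNAS3, OsYSL15, OsYSL9 and OsYSL16. OsNAS3 fell by 0.91 (adjusted p = 7.26e-08), rose by 0.72 (adjusted p = 7.04e-07) and fell by 0.85 (adjusted p = 3.77e-07). OsYSL16 fell by 1.14 (adjusted p = 3.12e-05), rose by 1.22 (adjusted p = 2.11e-05) and fell by 1.38 (adjusted p = 1.28e-05). OsYSL15 had steps of −0.97, 0.70 and −0.48 (adjusted p = 1.83e-08, 3.27e-07 and 1.35e-05). The middle step of OsYSL9 was the weakest, with a rise of 0.50 (adjusted p = 0.0127) that was 0.24 (adjusted p = 0.0903) without the second 24 h array and had an adjusted p of 0.085 without the second 48 h array. The calls of OsNAS3, OsYSL15 and OsYSL16 at the 3 steps held under every alternative run. All these steps were smaller than the corresponding ones of OsVIT2, and the 24 to 48 h step of OsYSL16 came closest, 1.22 against 1.31.

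Another 5 iron genes rose from 6 to 24 h and fell from 24 to 48 h, opposite to OsVIT2 at both steps. Of all tested probe sets, dim ones included, 10.3% did so. The 5 iron genes were OsIRT2, OsNRAMP1, OsYSL13, IRO3 and IDEF1. OsIRT2 rose by 2.50 (adjusted p = 3.1e-05) and fell by 2.18 (adjusted p = 0.000117). IRO3 rose by 1.1 (adjusted p = 4.7e-07) and fell by 1.32 (adjusted p = 1.22e-07). The fall of IDEF1 from 24 to 48 h was small, 0.25 (adjusted p = 0.0461), and was not called with median centring (adjusted p = 0.385). Both groupings by steps were made after the values had been seen.

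**Figure D4:**
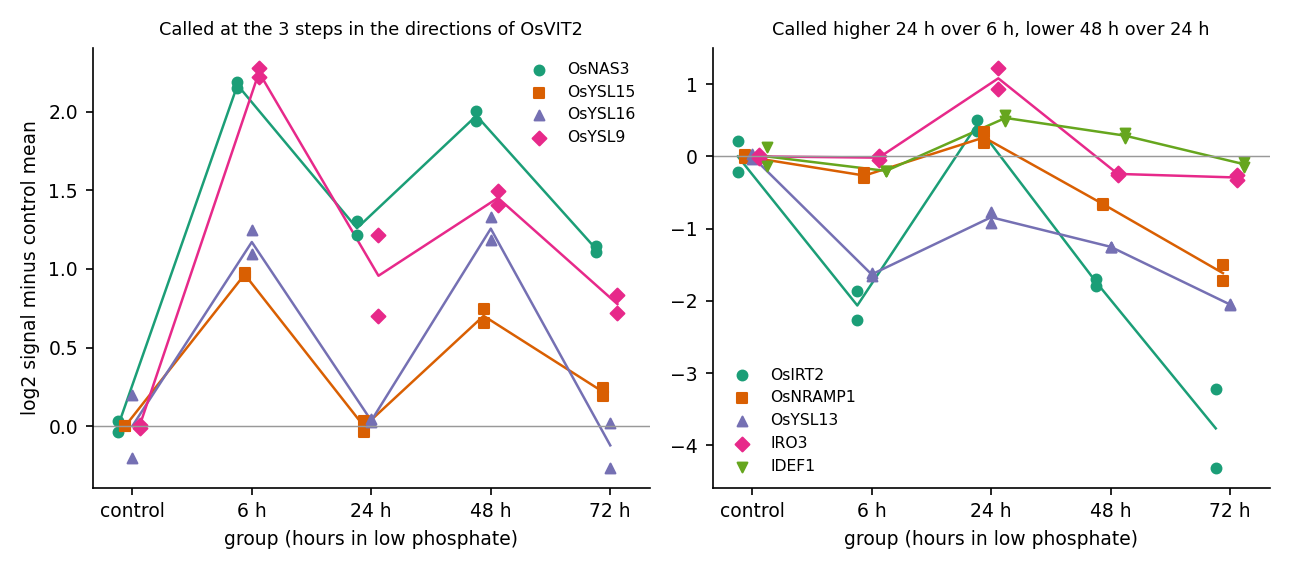
Log2 signal minus the gene's control mean on each array (points) with lines through group means, for the 4 iron genes that passed the test at the 3 steps in the directions of OsVIT2 (left) and the 5 that rose from 6 to 24 h and fell from 24 to 48 h (right). The left genes peak at 6 and 48 h, and IRO3 on the right reaches 1.08 at 24 h.

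Shoot and root markers also moved between the groups, beside these steps. The summed signal of 8 shoot markers, genes of photosynthesis and chlorophyll synthesis, was 93562 to 93587 in the control, 106819 to 107504 at 6 h, 71747 to 72577 at 24 h, 80522 to 84198 at 48 h and 72205 to 73885 at 72 h. This sum was highest at 6 h and higher at 48 h than at 24 and 72 h, but that order rested on CAB2R. Without it, a sum taken after the values had been seen, the other 7 summed to 55615 to 56384 in the control, 74653 to 75518 at 6 h, 67709 to 68564 at 24 h, 55272 to 56013 at 48 h and 53441 to 53965 at 72 h, so that 24 h lay above 48 h. Of the 8 shoot markers, 4 (CAB2R, RCABP89, RCABP69 and PORB) passed the test at all 3 steps in the directions of OsVIT2, and 3 rose from 6 to 24 h and fell from 24 to 48 h, against 3.37% and 10.3% of all tested probe sets. CAB2R, a light-harvesting chlorophyll a/b-binding protein, went from 37178.5 and 37972.5 in the control to 4012.4 and 4037.8 at 24 h and 28185.6 and 25250.5 at 48 h. The summed signal of 6 root markers, among them the silicon transporters Lsi1 and Lsi2, was 31628 to 32752 in the control, 28344 to 28706 at 6 h, 22667 to 23552 at 24 h, 32038 to 32999 at 48 h and 39676 to 40157 at 72 h. The low sum at 24 h rested on Lsi1, which went from 20793.6 and 21309.1 in the control to 9106.6 and 8480.4. At 24 h against the control, 2 of the 6 rose and only Lsi1 fell, against 20.6% and 19.2% of all tested probe sets. No root marker had the steps of OsVIT2, and 3 rose from 6 to 24 h and fell from 24 to 48 h. The root markers and 7 of the 8 shoot markers read above 23.9 on every array, and the shoot marker PORA read 1.5 and 23.9 at 24 h and 11.6 on one of the 72 h arrays. Their part in the OsVIT2 pattern was not tested.

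Genes listed as other metal transporters of the vacuolar membrane were called in both directions. Where each protein of this list sits was not checked here. The counts below depend on OsNRAMP3, which was called higher at 24 and 48 h and gave the 1 higher call at 72 h. Of 7 tested, 1 was called higher and 2 lower at 6 h, 3 higher and 1 lower at 24 h, 2 higher and 2 lower at 48 h, and 1 higher and 1 lower at 72 h. The shares over all probe sets at these times were 19.0% and 17.2%, 20.6% and 19.2%, 19.4% and 12.5%, and 21.9% and 17.6%, and counts this small do not set the list apart from them. OsCAX1a, a vacuolar cation/H+ exchanger, read 305.7 and 313.1 in the control, 501.1 and 444.7 at 6 h and 1124.2 and 1220.9 at 24 h. It was highest at 24 h, with a rise of 1.92 ± 0.16 (SE) over the control (adjusted p = 1.28e-06). OsNRAMP2, a tonoplast transporter that in rice is linked to the release of iron from the vacuole, read 13093.3 and 13007.9 in the control, 6122.5 and 6589.6 at 6 h, 8592.9 and 7409.5 at 24 h, 7196.2 and 6891.9 at 48 h, and 9451.3 and 10178.6 at 72 h. It was lowest at 6 h and highest in the control, the reverse of OsVIT2. OsNRAMP2 fell at all 4 times, with differences of −1.04, −0.71, −0.89 and −0.41 ± 0.07 (SE; adjusted p = 2.6e-07, 4.35e-06, 1.52e-06 and 0.000502). Its log2 signal correlated with that of OsVIT2 at −0.865 over the 10 arrays and at −0.960 over the 8 arrays other than those at 6 h, a description over arrays that share their groups. OsCAX3, another exchanger of this kind, was the 1 gene of the 7 with the steps of OsVIT2, and it rose by 0.40 ± 0.09 (SE) at 48 h (adjusted p = 0.00534).

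Likeness to OsVIT2 was measured as the Pearson correlation of log2 signals over the 10 arrays, as a description. Of the other 34354 tested probe sets, 203 correlated above 0.9, and the median was 0.015. The 12 genes with a published symbol that were most alike were OsMAGO1 (r = 0.986), ROMT-17 (0.986), PDC2 (0.980), RBP-208 (0.975), TUB1 (0.970), ACC2 (0.969), SSII-2 (0.969), OsPIP2;6 (0.963), RPN2 (0.951), SCAMP6 (0.947), OsYSL9 (0.947) and Fd-GOGAT (0.943). Among them TUB1 encodes a beta-tubulin, PDC2 a pyruvate decarboxylase, OsPIP2;6 an aquaporin and Fd-GOGAT the ferredoxin-dependent glutamate synthase. OsYSL9 was the only one of the 12 from the iron lists. The correlation compares shapes and not sizes. The 6 h differences of the 12 ran from 0.45 (OsMAGO1) to 2.66 (TUB1), against 8.81 for OsVIT2. TUB1 read 538.4 and 624.7 in the control and 3609.1 and 3726.4 at 6 h.

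Since the 6 h arrays dominate that measure, it was repeated over the other 8 arrays, where 343 probe sets correlated above 0.9 with a median of 0.062. The 6 most alike genes with a symbol were then OsGER1 (0.959), ACLA-2 (0.959), OsRPT5a (0.957), OsEX1 (0.956), KIN13B (0.954) and CYCD4-2 (0.953), none of them among the former 12. OsGER1 was lower at 6 h (649.2 and 734.8) than in the control (1316.7 and 1327.8), so its correlation over all 10 arrays was −0.496. OsRPT5a, a subunit of the proteasome's regulatory particle, kept 0.942 over all 10. LOC4336526 reached 0.968 over the 8 arrays and 0.852 over the 10. Of the iron genes, OsNAS3 had 0.929 over the 8 arrays, OsYSL9 0.901 and OsNAAT1 0.890, while OsVIT1 had 0.123.

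The genes beside OsVIT2 on its chromosome, looked up by order in the RefSeq table after the values had been seen, were also examined. Of 5 protein-coding genes on each side, 7 had a probe set, 9 probe sets in all. At 6 h, 1 of the 9 rose and 2 fell, near the 19.0% and 17.2% of all tested probe sets. The nearest gene on one side, LOC4346976, differed by 0.23 (adjusted p = 0.149), and the nearest on the other, LOC4346979, by 0.18 (adjusted p = 0.259). LOC4346976 did pass the test at the 3 later steps in the directions of OsVIT2, with −0.77, 0.76 and −1.03 (adjusted p = 0.000171, 0.00021 and 2.87e-05). LOC4346975, the fourth gene away on that side, rose from 53.7 and 65.9 in the control to 242.9 and 243.5 at 6 h, by 2.03 (adjusted p = 6.66e-05).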

How the data were processed

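Each array comes with 1 deposited intensity per probe set, on a linear scale. The authors used GCOS and MAS5, per the submitters' processing notes (versions not given in the sources used here). Sample titles gave the groups and replicate numbers. Of 57381 probe sets, 123 were Affymetrix controls, and 22436 were assigned to 1 gene by the platform annotation. Gene names came from RefSeq symbols and synonyms.

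Log2 signals were taken without an offset, keeping the authors' scaling. Probe sets with a mean log2 signal above the 40th percentile (4.579, a signal of 23.9) were tested, 34355 in all. A linear model with 5 group means was fitted to the 10 arrays with limma 3.58.1 in R 4.3.3 (5 residual degrees of freedom, 6.5 prior), with eBayes and an intensity trend. Tests were two-sided, and p was adjusted by Benjamini-Hochberg over all tested probe sets of a comparison. An adjusted p under 0.05 counted as a call, written as rose or fell. All p-values thus measure differences against a scatter pooled over 5 groups of 2 arrays. This scatter is also drawn towards that of other probe sets of like intensity. The size of the p-values also depends on the intensity trend. The limma adjusted p of OsNAS2 at 6 h against control was 1.81e-11 with the trend and 3.7e-05 without it. The procedure was tested on simulated data, with independent noise on each array and changes added at 6 h only. That check does not cover shifts of whole arrays, such as the higher median signal at 72 h.

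OsVIT2 had no test because its pattern chose it. The members and gene lists were chosen with earlier results of these data known. Named genes were OsVIT2, the list members with a one-gene probe set, the 12 and 6 most alike genes with a symbol, and up to 5 probe sets on each side of OsVIT2 in the order of the 6 h difference. For a gene with several probe sets the one with the highest mean was used. Ferritins and other storage proteins had no matched symbol, OsYSL2 had no one-gene probe set, and TOM1 was left out because that symbol belongs to another gene here. Alternatives were other scalings, an offset, other filters, no trend, a replicate block, fits of the compared groups alone, averaged probe sets and each array left out. Replicate numbers were checked for pairing: the differences between replicates 1 and 2 correlated at −0.009 to 0.017 between groups, over 10 pairs of groups.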

Additional observations from a re-analysis of the deposited data

Results flagged for a closer look

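Of the iron genes, 2 were called in opposite directions against the control at neighbouring times, and the step between those times also passed the limma test. All these comparisons share the control arrays, but the steps do not use them. OsNRAMP1 stood at −0.27 at 6 h and 0.26 at 24 h, a step of 0.53 (adjusted p = 0.000145), and then at −0.66 at 48 h, a step of −0.93 (adjusted p = 1.59e-06). IRO3 stood at 1.08 at 24 h and −0.24 at 48 h, a step of −1.32 (adjusted p = 1.22e-07). At 24 h both genes were above the control while OsVIT2 was lower than at 6 and 48 h. At 72 h, when OsVIT2 was lowest among the low-phosphate times, both fell against the control. The differences were −1.62 for OsNRAMP1 and −0.29 for IRO3, the latter not called without the intensity trend. Against the control, the OsNRAMP1 calls at 6 and 24 h and the IRO3 call at 48 h were lost under several alternatives, for example without the intensity trend (adjusted p = 0.106, 0.101 and 0.161).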

How the results depend on the processing

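The directions of all 7 OsVIT2 differences held under every alternative run. With log2(signal + 16) the 6 h and 48 h differences of OsVIT2 from control became 8.18 and 3.40, since the offset is of the size of the control signals. Leaving out 1 array at a time gave OsVIT2 8.09 to 9.52 at 6 h, 1.96 to 3.39 at 24 h, 3.27 to 4.70 at 48 h and 0.92 to 2.35 at 72 h, with control replicate 2 or 1 left out at the ends. Averaging probe sets was not run for OsVIT2, which has 1. Of 77 calls on the iron genes, 62 held under every alternative, among them 9 of 11 at 6 h and 6 of 10 at 72 h. Over the alternatives, the number of iron genes called was 9 to 11 at 6 h, 9 to 10 at 24 h, 10 to 13 at 48 h and 8 to 11 at 72 h against control. With the replicate block it was 11, 10, 13 and 10, and the numbers do not pair the samples. Directions turned for OsNAS1 (72 h against control −0.08 and, with quantile normalization, −0.22 from 6 to 24 h and 0.05 from 24 to 48 h), OsYSL15 (−0.28 at 72 h with median centring) and OsIRT1 (0.14 at 48 h with quantile normalization, −0.40 from 48 to 72 h with median centring), and the cause was not tested. Median centring moved the share of calls that were higher from 55.5% to 12.6% for 72 h against control, from 46% to 5.11% for 72 h against 48 h and from 57.1% to 68.6% for 48 h against 24 h, and the median of all tested probe sets at 72 h from 0.163 to −0.336.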

Other observations

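Zinc and manganese, which OsVIT2 can also carry, have uptake genes of their own. Of 6 tested in the limma fit, 4 were called higher and 0 lower at 6 h, 3 higher and 1 lower at 24 h, and 3 higher and 0 lower at both 48 and 72 h. Of all tested probe sets, 19.0% were higher and 17.2% lower at 6 h, 20.6% and 19.2% at 24 h, 19.4% and 12.5% at 48 h, and 21.9% and 17.6% at 72 h, and 0 or 1 lower of 6 is near those shares. At an unadjusted p under 0.05 the numbers lower at 6, 48 and 72 h were also 0. OsZIP1, a zinc transporter, rose by 1.15, 1.70, 1.52 and 2.1 ± 0.07 (SE) on the log2 scale at 6, 24, 48 and 72 h, and was highest at 72 h, when OsVIT2 was lowest among the low-phosphate times. OsZIP4, another zinc transporter, rose by 1.13 ± 0.24 (SE) at 6 h (adjusted p = 0.00287) and by 1.5 at 24 h (adjusted p = 0.00033). OsNRAMP5, the main manganese uptake transporter of rice roots, had differences of 0.15, −0.19, 0.88 and 0.93 ± 0.05 (SE) at 6, 24, 48 and 72 h (adjusted p = 0.0395, 0.0108, 1.3e-07 and 5.78e-08), and is the 1 gene called lower at 24 h. None of the 6 had the steps of OsVIT2. Calls outside the iron lists were not compared across the alternative settings. The OsZIP7 call at 72 h was 0.42, the size of the OsNAS1 difference that became −0.08 with median centring. OsZIP3 and OsHMA2, also on this list, were too dim to be tested.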
